A study of Mus musculus with 16 samples.

Results

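Growing mouse oocytes make a set of RNAs that few other cells make, and 10 of these genes were followed here across ovaries and testes of conventional and germ-free mice. They were taken by symbol, and all 10 were found among the 38087 genes of a single read count table of 16 total RNA libraries. Gdf9 and Bmp15 encode the growth factors that the oocyte secretes, and Zp1, Zp2 and Zp3 the proteins of the zona pellucida, the egg coat. Figla and Nobox encode oocyte transcription factors, Nlrp5 and Dppa3 proteins stored for the early embryo, and Oosp1 a small secreted oocyte protein.

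The libraries came from whole ovaries of female and whole testes of male C57BL/6j mice aged 15 to 16 weeks, fed ad libitum and sampled at zeitgeber time 2 to 4 (hours after lights on). Conventionally raised mice (CV), which carry gut microbes, gave 4 ovary and 4 testis libraries, and germ-free mice (GF), raised without microbes, gave 5 and 3. The labels do not say that libraries came from separate animals, so p-values measure the spread between these libraries, which may be technical. They give no batch and no cycle stage, and tissue and sex cannot be told apart. Ovary libraries held 12912251 to 15907297 counts and testis libraries 25880591 to 28266867. The tissue labels matched their markers: summed spermatid markers (6 genes) ran from 12327 to 13690 CPM (counts-per-million of the TMM-scaled library total) in the testis and from 0.188 to 2.16 CPM in the ovary, where Acrv1 was at 0 counts in every GF library. Summed granulosa markers (9 genes), from the somatic cells around the oocyte, ran from 1629.8 to 3110.3 CPM in the ovary and from 72.4 to 78.7 CPM in the testis, where Foxl2 was at 0 counts in every GF library. Summed oviduct markers (5 genes) were also high in the ovary libraries, at 1886 to 3861 CPM. Whether oviduct tissue was included, and how far it affected the CPM of the oocyte genes, was not tested.

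As background, an oocyte grows inside a follicle of granulosa cells, and its secreted GDF9 and BMP15 act on receptors of those cells to direct their growth and metabolism. FIGLA, a basic helix-loop-helix protein, binds E-boxes in zona gene promoters, and NOBOX, a homeobox protein, acts on growth factor and other oocyte genes through TAATTG-like sites. The zona proteins assemble into the coat that sperm bind, while NLRP5 and its partners form a complex below the oocyte membrane that the early embryo needs.

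Promoter windows were available from RefSeq (GRCm38.p6) for 6 of the 10 genes, and 6 windows are printed to set genes that were nearly absent from the testis (Zp3, Bmp15 and Oosp1) beside genes with enough counts in it to be tested (Figla, and Nlrp5 at its 2 annotated starts). Each run holds the 250 bases before the RefSeq start, 5′ to 3′ on the gene's strand, with E-boxes (CANNTG, which reads the same on both strands) in capitals.
Zp3: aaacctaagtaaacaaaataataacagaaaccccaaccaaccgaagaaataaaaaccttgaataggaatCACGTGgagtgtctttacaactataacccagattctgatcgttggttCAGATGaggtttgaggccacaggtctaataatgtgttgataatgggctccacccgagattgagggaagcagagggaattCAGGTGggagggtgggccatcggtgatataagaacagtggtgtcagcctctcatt
Bmp15: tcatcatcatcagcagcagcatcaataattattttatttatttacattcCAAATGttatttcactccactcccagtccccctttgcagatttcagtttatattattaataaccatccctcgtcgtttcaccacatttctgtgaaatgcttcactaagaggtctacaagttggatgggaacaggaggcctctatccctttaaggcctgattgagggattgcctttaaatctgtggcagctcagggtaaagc
Oosp1: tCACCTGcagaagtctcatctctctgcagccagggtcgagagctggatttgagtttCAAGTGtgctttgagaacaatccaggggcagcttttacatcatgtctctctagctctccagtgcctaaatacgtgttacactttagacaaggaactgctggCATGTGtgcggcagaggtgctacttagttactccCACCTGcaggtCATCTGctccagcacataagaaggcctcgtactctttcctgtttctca
Figla: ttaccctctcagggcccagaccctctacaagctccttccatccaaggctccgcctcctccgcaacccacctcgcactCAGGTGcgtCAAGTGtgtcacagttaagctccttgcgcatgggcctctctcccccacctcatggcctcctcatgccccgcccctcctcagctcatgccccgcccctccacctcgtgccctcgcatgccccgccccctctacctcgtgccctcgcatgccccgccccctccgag
Nlrp5 (outer start): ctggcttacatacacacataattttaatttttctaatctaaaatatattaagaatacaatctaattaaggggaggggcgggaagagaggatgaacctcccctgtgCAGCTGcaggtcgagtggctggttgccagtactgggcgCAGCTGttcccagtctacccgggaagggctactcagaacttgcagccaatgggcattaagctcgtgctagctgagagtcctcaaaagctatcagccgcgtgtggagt
Nlrp5 (inner start): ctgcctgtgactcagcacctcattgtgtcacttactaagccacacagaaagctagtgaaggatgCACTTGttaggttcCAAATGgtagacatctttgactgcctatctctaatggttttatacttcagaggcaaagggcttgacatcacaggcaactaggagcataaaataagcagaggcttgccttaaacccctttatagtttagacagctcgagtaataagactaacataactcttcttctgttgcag
They lie at chr5:135979855-135980104 (plus strand, Zp3), chrX:6320725-6320974 (minus, Bmp15), chr19:11691052-11691301 (minus, Oosp1), chr6:86016941-86017190 (plus, Figla), and chr7:23385639-23385888 and chr7:23403852-23404101 (plus, Nlrp5). RefSeq starts can differ from the GENCODE gene ends given with each gene. The Figla window and the inner Nlrp5 window lie inside the GENCODE gene, and the Oosp1 and Zp3 windows overlap its first bases.

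The Zp3 window held 3 E-boxes, the first bases of which stood at -181 (a CACGTG), -134 and -55 from the start. Bmp15 had a single match at -201, Oosp1 had 5 between -249 and -48, and Figla had 2 at -173 and -164. The windows of Nlrp5 each held 2, at -145 and -107 for the outer and at -186 and -172 for the inner start. The Nobox window held 2 as well. Every gene with a window thus had an E-box, but so did 66.2% of 32851 promoter windows of the same length, and the count of matches did not separate the genes with few testis reads from Figla and Nlrp5. No window of these genes held TAATTG on either strand, which 7.17% of all windows hold. A match is a run of letters and not evidence of a bound site, and a missing one says only that the letters are not in this window.

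All 10 genes were detected in every ovary library, at levels that spanned a wide range once exon length was taken into account. Over the 9 ovaries the mean level per kilobase of merged exons was highest for Gdf9 (22.9 CPM per kb), followed by Zp3 (17.3), Zp2 (16.4) and Bmp15 (11.4). Dppa3 (9.43), Nlrp5 (9.26) and Oosp1 (8.68) came next, and Zp1 (6.63), Nobox (3.63) and Figla (0.811) last. Each library was checked for the order of neighbours. Gdf9 exceeded Zp3 in 9 of 9, Zp2 exceeded Bmp15 in 9 of 9, and the last 3 steps, from Oosp1 down to Figla, also held in 9 of 9. Zp3 exceeded Zp2 in 7, Bmp15 exceeded Dppa3 in 7, Dppa3 exceeded Nlrp5 in 3 and Nlrp5 exceeded Oosp1 in 6, so these neighbours were not separated by their spread. Of the coat proteins, Zp1, which cross-links the filaments that ZP2 and ZP3 build, thus had the lowest RNA level per length. Dppa3 has pseudogene copies, with which its reads may be shared, so its level is uncertain.

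The first comparison asked whether the oocyte genes differ in the ovary of mice without microbes. No difference beyond the spread between libraries was found: edgeR's quasi-likelihood test (Benjamini-Hochberg adjusted over 18095 genes) called 0 of the 9 genes that passed its filter on low counts at an adjusted p under 0.05. Across all genes tested, 0.177% were called in this comparison (32 genes). DESeq2 and limma-voom also called 0 of the 9, and 0 had an unadjusted p under 0.05 by edgeR, against 6.48% of all genes. The fitted GF over CV value was negative for all 9, with a median log2 fold change of -0.23, while 48.3% of all genes were negative and the median over all genes was 0.01. These 9 values come from the same libraries, in which the genes rose and fell together, so they are not separate observations. For 0 of the 9 did the CV and GF ranges stand apart, as they did for 2.72% of all genes.

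**Figure D1:**
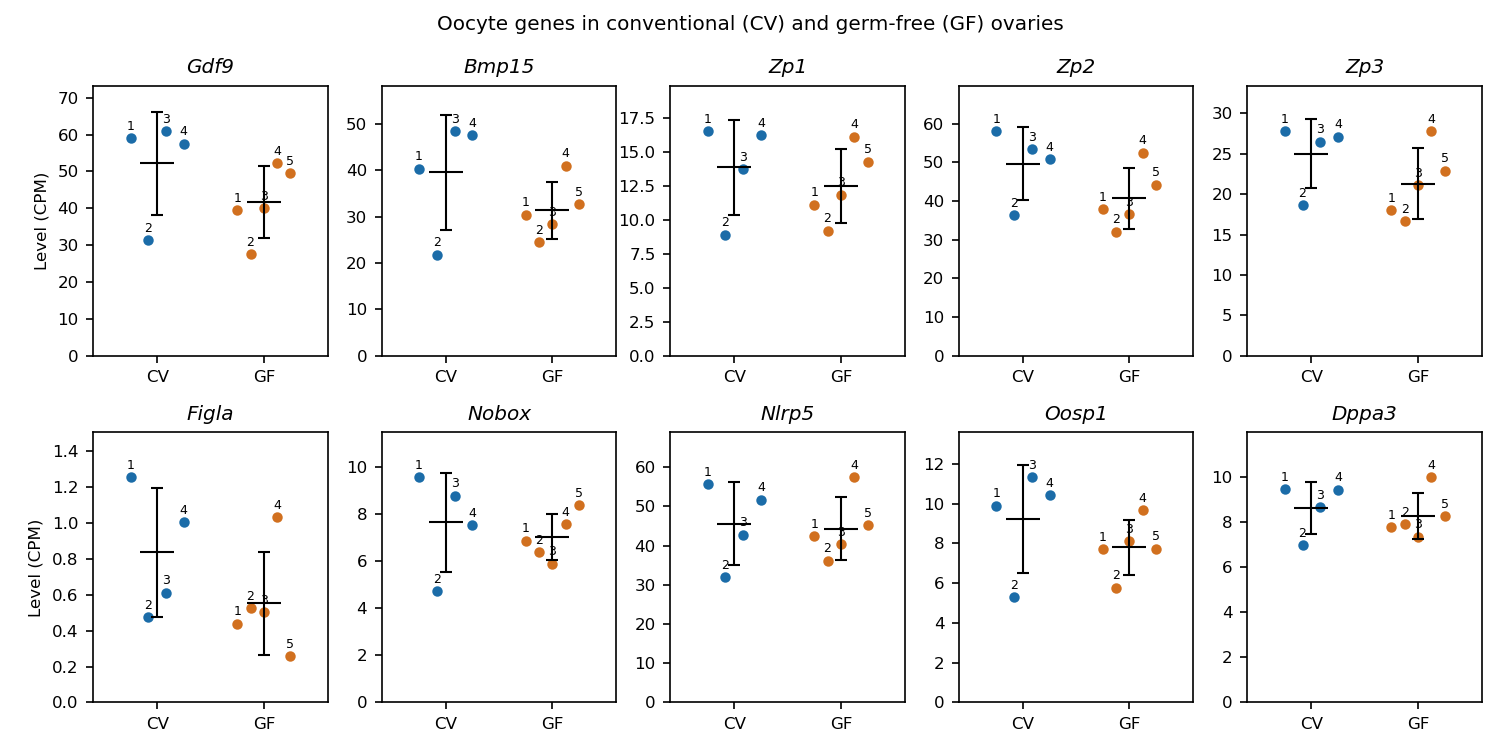
Level of each of the 10 oocyte genes (CPM, own axis from 0) in CV and GF ovary libraries, with the replicate number beside each point; the long bar is the mean and the whiskers 1 SD (n = 4 and 5). The CV and GF points overlap for every gene, and CV replicate 2 lies below the other CV points for each gene.

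Gdf9 (ENSMUSG00000018238, GRCm38 chromosome 11, 53431023 to 53437904, plus strand), which drives granulosa growth and cumulus expansion, stood at 59.0, 31.3, 61.0 and 57.6 CPM in CV ovaries 1 to 4. In GF ovaries 1 to 5 it stood at 39.6, 27.6, 40.0, 52.3 and 49.6 CPM. Of the CV libraries 3 lay above all GF libraries, and CV2 lay below all but GF2. The means were 52.2 ± 14.0 and 41.8 ± 9.75 CPM (SD, n = 4 and 5), a log2 fold change of -0.32 (SE 0.231, 95% interval -0.84 to 0.20, edgeR adjusted p = 0.868). Bmp15 (ENSMUSG00000023279, chromosome X, 6314107 to 6320721, minus strand), its X-linked partner, stood at 40.3, 21.8, 48.4 and 47.5 CPM in CV and at 30.4, 24.6, 28.3, 40.9 and 32.7 CPM in GF ovaries. Here CV2 was the lowest of all 9, with GF2 next, and GF4 stood between CV1 and CV4. The log2 fold change was -0.33 (SE 0.232, 95% interval -0.85 to 0.19, edgeR adjusted p = 0.862).

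Among the coat genes, Zp2 (ENSMUSG00000030911, chromosome 7, 120126772 to 120145291, minus strand), whose protein sperm bind, stood at 58.1, 36.3, 53.5 and 50.8 CPM in CV ovaries. In GF ovaries it stood at 38.0, 32.1, 36.7, 52.5 and 44.2 CPM. GF2 was lowest and CV1 highest, and GF4 lay among the upper CV libraries. Means of 49.7 ± 9.40 and 40.7 ± 7.92 CPM (SD, n = 4 and 5) gave a log2 fold change of -0.29 (SE 0.164, 95% interval -0.65 to 0.08, edgeR adjusted p = 0.810). Zp3 (ENSMUSG00000004948, chromosome 5, 135980099 to 135988624, plus strand), the other main filament protein, stood at 27.8, 18.6, 26.5 and 27.1 CPM in CV and at 18.0, 16.7, 21.1, 27.7 and 22.9 CPM in GF ovaries. The highest values were in CV1, CV3, CV4 and GF4 and the lowest in GF1, GF2 and CV2. The log2 fold change was -0.23 (SE 0.163, 95% interval -0.59 to 0.13, edgeR adjusted p = 0.859). Zp1 (ENSMUSG00000024734, chromosome 19, 10914287 to 10920632, minus strand) ran from 8.94 to 16.6 CPM in CV and from 9.23 to 16.2 CPM in GF ovaries, nearly the same range. Its log2 fold change was -0.15 (SE 0.205, 95% interval -0.60 to 0.31, edgeR adjusted p = 0.928).

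The transcription factor genes were the lowest of the set. Nobox (ENSMUSG00000029736, chromosome 6, 43303674 to 43309554, minus strand) stood at 9.57, 4.74, 8.80 and 7.55 CPM in CV and at 6.89, 6.38, 5.90, 7.60 and 8.38 CPM in GF ovaries. All GF values fell between the lowest and highest CV libraries. The log2 fold change was -0.12 (SE 0.199, 95% interval -0.56 to 0.32, edgeR adjusted p = 0.940). Figla (ENSMUSG00000030001, chromosome 6, 86016171 to 86020996, plus strand) rested on 19, 7, 8 and 14 reads in CV and on 7, 7, 7, 14 and 4 reads in GF ovaries. CV1 was highest and GF5 lowest, and 4 libraries shared a count of 7. It did not pass the filter, and without a filter its log2 fold change was -0.61 (SE 0.436, edgeR adjusted p = 0.779). At this depth counting error alone gave a coefficient of variation of 32.2% for Figla, against 3.88% for Gdf9, so only a large change of Figla could have been seen.

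Of the stored and secreted products, Nlrp5 (ENSMUSG00000015721, chromosome 7, 23385889 to 23441922, plus strand) stood at 55.7, 31.9, 42.8 and 51.7 CPM in CV and at 42.5, 36.2, 40.4, 57.4 and 45.3 CPM in GF ovaries. The single highest library was GF4 and the lowest CV2. With means of 45.6 ± 10.6 and 44.3 ± 8.01 CPM (SD, n = 4 and 5), its log2 fold change was -0.04 (SE 0.174, 95% interval -0.43 to 0.35, edgeR adjusted p = 0.983). Nlrp5 is overlapped by the annotated microRNA gene Gm25196 on the same strand, and how reads in the overlap were counted is not given in the sources used here. Dppa3 (ENSMUSG00000046323, chromosome 6, 122626410 to 122630272, plus strand), whose protein guards DNA methylation after fertilisation, ran from 6.98 to 9.44 CPM in CV and from 7.34 to 9.96 CPM in GF ovaries. It had the smallest fold range of the 10 genes (1.43 from lowest to highest library), with a log2 fold change of -0.07 (SE 0.136, 95% interval -0.37 to 0.24, edgeR adjusted p = 0.956). Oosp1 (ENSMUSG00000041857, chromosome 19, 11667460 to 11691150, minus strand) ran from 5.28 to 11.3 CPM in CV and from 5.78 to 9.67 CPM in GF ovaries, so the GF range lay inside the CV range. Its log2 fold change was -0.24 (SE 0.219, 95% interval -0.72 to 0.24, edgeR adjusted p = 0.895).

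**Figure D2:**
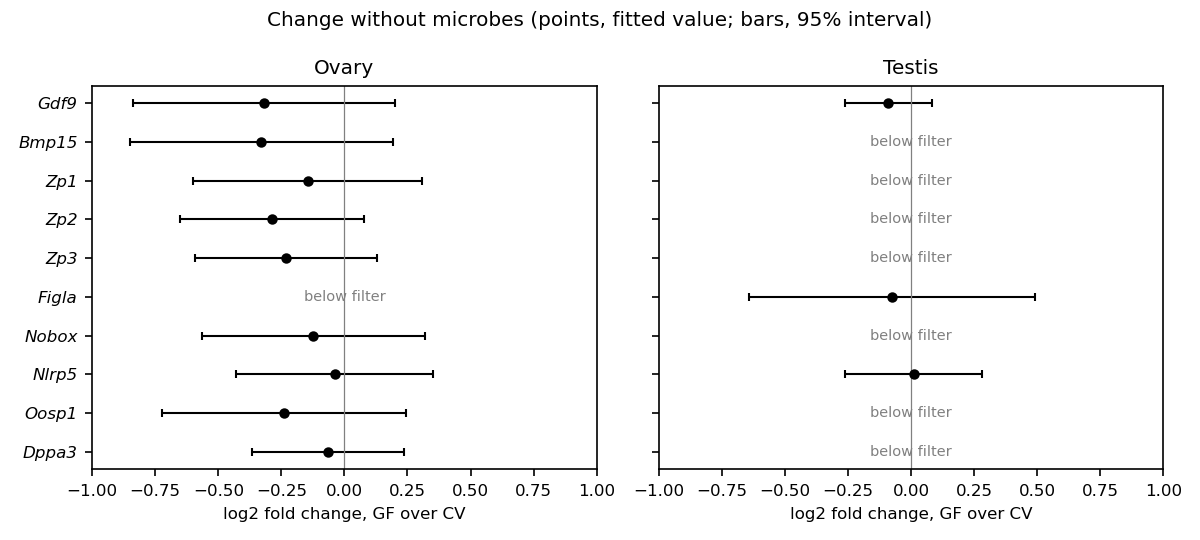
Fitted log2 fold change, GF over CV, of each gene in the ovary and the testis (edgeR; point, estimate; bar, 95% interval), with genes below the filter on low counts marked. Every interval crosses 0, and in the ovary all 9 points lie left of 0.

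Single libraries moved these values. Without CV2 the median of the members was -0.38 with 10 of 10 negative, and 5 had an unadjusted p under 0.05, but 0 were called. Without GF2 the median was -0.15 with 8 of 9 negative, and without CV1 it was -0.18 with 7 of 9 negative. With replicate number as a block, which left out GF5, 0 of 9 were called and 3 had an unadjusted p under 0.05. The share of all genes at that unadjusted p was not counted without CV2 or with the block. The counts of 5 and 3 therefore cannot be set against it.

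Libraries of the same microbiota group differed widely. The summed level of the 10 genes was 288, 166, 275 and 279 CPM in CV ovaries 1 to 4 and 202, 167, 200.3, 275 and 234 CPM in GF ovaries 1 to 5. CV2 and GF2 lay at the bottom and CV1, CV3, CV4 and GF4 at the top, so both groups held high and low libraries. CV2 was the lowest library for 6 of the genes, GF2 for 3 and GF5 for 1 (Figla). CV1 was the highest for 5, CV3 for 3 and GF4 for 2. In whole tissue, fewer oocytes and less of these RNAs in each oocyte cannot be told apart.

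**Figure D3:**
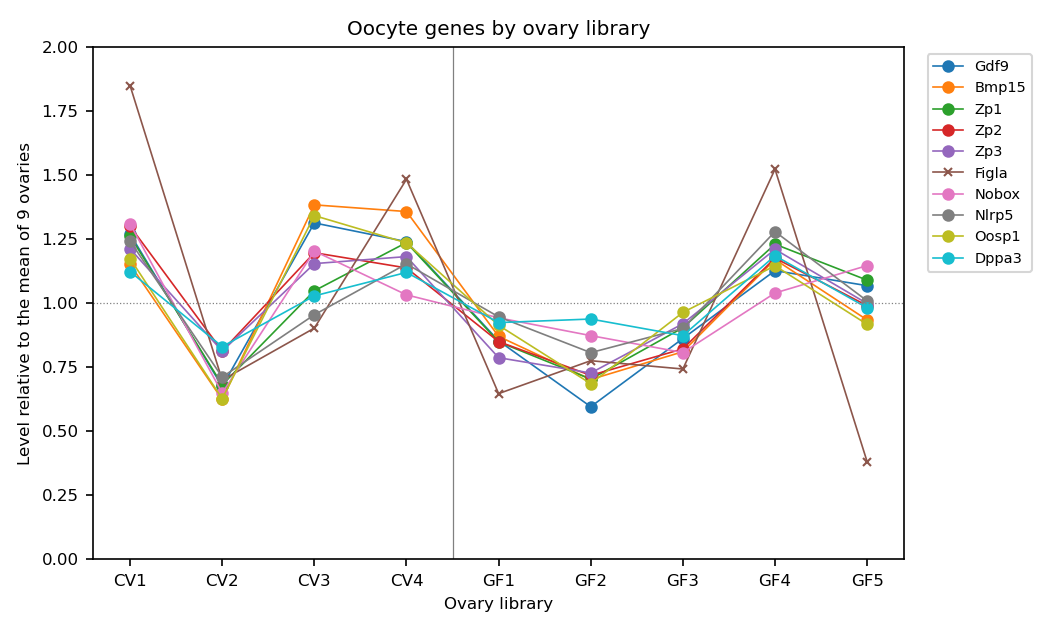
Level of each gene in each ovary library divided by that gene's mean over the 9 ovaries (1 on the vertical axis is the mean; the vertical line parts CV from GF libraries). All 10 genes lie below 1 at CV2 and GF2 and above 1 at CV1, CV4 and GF4, and Figla (crosses) departs most from the rest.

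This shared course was close for most pairs of genes. Over the 9 ovaries, the 36 pairs without Figla had Pearson r of log2 CPM from 0.72 to 0.97 (median 0.86) and Spearman rho from 0.70 to 0.95. All 36 had an adjusted p under 0.05 for r, and 35 for rho (exact permutation tests, two-sided, adjusted over all 45 pairs). These tests treat the 9 ovaries as exchangeable, but same-numbered libraries, and some unlike-numbered ones, deviated together over all genes. The lowest libraries here (CV2 and GF2) share a number, as do CV4 and GF4. The p-values do not allow for such dependence. Bmp15 and Oosp1 were closest, with r = 0.967 and rho = 0.933 (exact permutation p = 5.51e-05, adjusted p = 0.00124, for r). Zp2 and Zp3 followed the same course with r = 0.961 and rho = 0.90, and Gdf9 and Bmp15 with r = 0.941 and rho = 0.917 (exact permutation, adjusted p = 0.00255 for each r). Without the 2 libraries farthest from the median, r of the 36 pairs ran from 0.49 to 0.97 (median 0.87), and with each group centred on its mean from 0.73 to 0.97 (median 0.88). Figla kept less to this course: its 9 pairs had r from 0.36 to 0.73, of which 1 had an adjusted p under 0.05 for r and 2 for rho. With Nobox, the other transcription factor gene, r was 0.355 (exact permutation p = 0.349). Whether Figla's weaker relation differs from the rest beyond its low counts was not tested. Leaving out single libraries left 25 (without CV2) to 41 (without GF5) of the 45 pairs under an adjusted p of 0.05 for r.

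The spread between ovaries was wider than that of a typical gene. The highest library exceeded the lowest by 2.21-fold for Gdf9, 2.22-fold for Bmp15, 2.14-fold for Oosp1 and 2.02-fold for Nobox. For Zp1, Zp2, Zp3 and Nlrp5 the span was 1.67-fold to 1.85-fold, for Dppa3 1.43-fold and for Figla 4.86-fold. As a coefficient of variation this was 27.7% for Bmp15, 26.5% for Gdf9 and 19.2% for Nlrp5, where the median over other genes was 12.7%. Dppa3, at 12.2%, lay near that median, and counting error alone gave 9.11% at its depth.

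Markers of other ovarian cells and of the oviduct also varied between libraries. The summed granulosa markers were 2309 CPM in CV2 and 1636 CPM in GF2, the libraries of lowest oocyte RNA, and 3110.3 CPM in GF4. In CV1, highest for the oocyte genes, they were 1811 CPM, among the lower values. Summed theca markers (5 genes, androgen-making cells) ran from 402 to 523 CPM in CV and from 146 to 1336 CPM in GF ovaries, and corpus luteum markers (9 genes) from 3943 to 6831 CPM and from 3422 to 7259.6 CPM. Oviduct markers (5 genes) ran from 2771 to 3522 CPM in CV and from 1886 to 3861 CPM in GF libraries. Every gene of these lists had counts in both ovary groups, and their part in the oocyte values was not tested.

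Ratios between partner genes within a library set the shared course aside. Gdf9 had 1.33 counts for each of Bmp15 (geometric mean over 9 ovaries, range 1.13 to 1.52), Zp2 had 1.94 for each of Zp3 (1.74 to 2.10) and Zp1 had 0.569 (0.48 to 0.625). Nlrp5 had 5.28 for each of Dppa3 (4.57 to 5.90). These are ratios of reads and not of molecules, since the genes differ in length. The log2 SD of the Zp2 to Zp3 ratio was 0.0844, and those of the Gdf9 to Bmp15, Nlrp5 to Dppa3 and Zp1 to Zp3 ratios were 0.142, 0.135 and 0.124. Figla to Nobox was looser (0.0848, range 0.0308 to 0.136, log2 SD 0.683).

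None of these 5 ratios differed between CV and GF beyond the spread. The log2 GF minus CV difference was -0.02 for Gdf9 to Bmp15 (exact permutation test, two-sided, p = 0.841) and -0.05 for Zp2 to Zp3 (exact p = 0.444). It was 0.11 for Zp1 to Zp3 (exact p = 0.230), 0.04 for Nlrp5 to Dppa3 (exact p = 0.667) and -0.55 for Figla to Nobox (exact p = 0.270). The last value was -0.25 without GF5, which had 4 Figla reads. Adjusted over the 5 ratios, the p-values ran from 0.675 to 0.841, where 0.00794 is the smallest unadjusted p that 4 against 5 libraries can give.

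**Figure D4:**
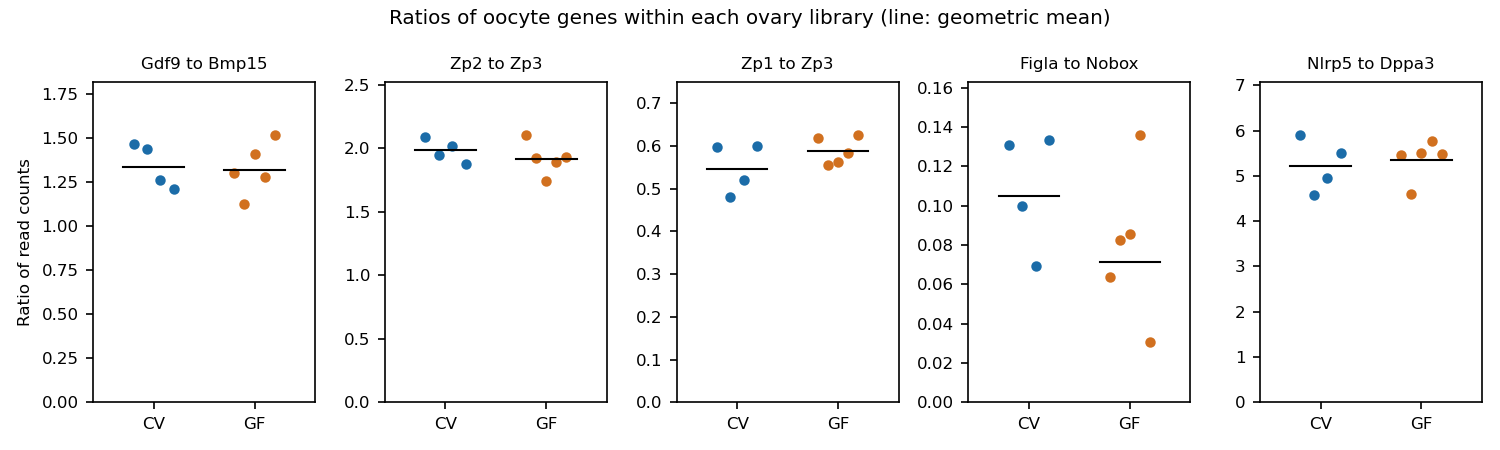
Ratio of read counts of 5 gene pairs within each ovary library (points; line, geometric mean of the CV or GF libraries; axes start at 0). CV and GF points overlap in each panel, and the Figla to Nobox ratios spread most, from 0.0308 to 0.136.

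Other oocyte genes moved with the set. The 5 named genes outside it whose course over the 9 ovaries was most like the mean course of the 10 were Nlrp14 (r = 0.984), Nlrp4f (0.975), Padi6 (0.975), Tle6 (0.972) and Gdap1 (0.965). Nlrp14 is an oocyte and testis gene of the Nlrp family, Padi6 and Tle6 belong to the complex around NLRP5, and Gdap1 encodes a mitochondrial outer membrane protein and was in no oocyte list. Of 17160 other genes averaging 1 CPM or more, 1.34% had r of 0.8 or more and the median r was -0.03. Of 37 genes in 4 oocyte lists 25 had it, with a median r of 0.93. Listed genes held under another name (Folr4, Plac1l and Gm97) were not matched here. These r values share libraries with the genes they are set against and are given as description.

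Around the set, no listed gene was called in the ovary by edgeR. All 7 genes of the subcortical maternal complex besides Nlrp5 were negative (median -0.19), among them Padi6 (65.0 to 57.1 CPM, log2 -0.19) and Nlrp2 (-0.28). Of 22 other maternal and oocyte genes 21 were negative (median -0.19), for example Pabpc1l, a poly(A)-binding protein of oocytes (-0.40, unadjusted p = 0.0702 by edgeR), and Zar1l (-0.39). Of 6 tested oocyte transcription regulators 5 were negative (median -0.10), while Sohlh1, a factor of early oocytes, averaged 0.489 CPM with microbes and 0.821 CPM without. Of 6 surface and gap junction genes 3 were negative (median -0.02). Cd9, the egg membrane protein needed for sperm fusion but also made by other cells, averaged 102 CPM in conventional and 87.5 CPM in germ-free ovaries (log2 -0.22, unadjusted p = 0.0444, adjusted p = 0.759 by edgeR). Germ cell genes of both sexes had 2 of 6 negative (median 0.11).

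Genes for receptors and signalling of the oocyte growth factors, and cumulus genes under oocyte control, were not called either. Of 14 genes for receptors and signalling of GDF9 and BMP15, 8 were negative and the median was -0.02. Bmpr1a, a type 1 receptor, averaged 263 CPM in conventional and 249.7 CPM in germ-free ovaries (log2 -0.07), and the inhibitory Smad7 at a log2 value of 0.14. Of 13 cumulus genes that oocyte signals control, 3 were negative and the median was 0.05. Ptgs2, the prostaglandin synthase of the ovulatory response, stood at 3.36 and 2.31 CPM (log2 -0.54), and Pfkp, a glycolysis enzyme, at 59.3 and 64.8 CPM (0.13).

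In the testis 3 of the genes, Gdf9, Nlrp5 and Figla, had enough reads to pass the filter on low counts. Per kilobase of exon the testis order was Gdf9 (4.93 CPM per kb), Figla (1.11), Nlrp5 (0.942) and Zp3 (0.149), each step holding in at least 6 of 7 libraries. The order of the genes below Zp3 held in 2 to 5 of 7 libraries at each step and was not resolved.

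**Figure D5:**
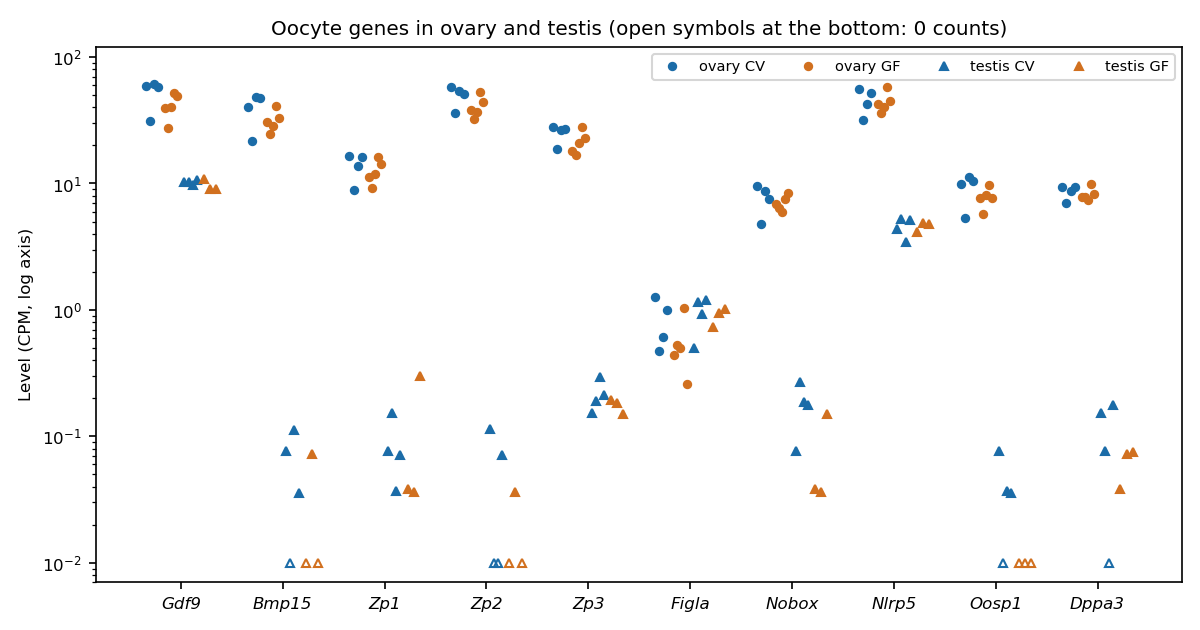
Level of each gene (CPM, log axis) in every ovary (circles) and testis (triangles) library; open triangles at the bottom are libraries with 0 counts. Ovary and testis points do not overlap for 9 of the genes, with the narrowest gap for Gdf9, and overlap for Figla.

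Gdf9 had 268, 271, 261 and 303 reads in CV and 280, 248 and 243 in GF testes, or 10.3 ± 0.437 and 9.66 ± 1.01 CPM (SD, n = 4 and 3). Nlrp5 had 113, 138, 92 and 146 reads in CV and 106, 134 and 127 in GF testes, or 4.55 ± 0.866 and 4.58 ± 0.422 CPM. Figla had 13, 30, 25 and 34 reads in CV and 19, 26 and 27 in GF testes, or 0.945 ± 0.320 and 0.898 ± 0.145 CPM. Between GF and CV testes 0 of the 3 were called by edgeR, where 8.08% of 20269 genes were, and 0 had an unadjusted p under 0.05, against 19.4% of all genes. The ranges of CV and GF testes stood apart for 0 of the 3, as they did for 17.1% of all genes. DESeq2 and limma-voom also called 0. The log2 fold change was -0.09 for Gdf9 (SE 0.0852, adjusted p = 0.631), -0.08 for Figla (SE 0.279, adjusted p = 0.922) and 0.01 for Nlrp5 (SE 0.134, adjusted p = 0.981) by edgeR.

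The other 7 genes had few reads in any testis. Zp3 had 4, 5, 8 and 6 reads in CV and 5, 5 and 4 in GF testes, present in all 7 libraries. Zp2 had 3, 0, 0 and 2 reads in CV and 0, 1 and 0 in GF testes, and Bmp15 2, 0, 3 and 1 and then 0, 2 and 0. Zp1 had 2, 4, 1 and 2 reads in CV and 1, 1 and 8 in GF testes, most of the GF reads being in replicate 3. These counts lie near the floor of 3 reads, the most that a count of 0 allows, and the 7 genes did not pass the filter for a test of GF against CV testes. Nobox had 1 to 7 reads, Dppa3 0 to 5 and Oosp1 0 to 2, and Oosp1 was at 0 in all 3 GF testes.

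In the comparison of testis with ovary, 9 of the 10 genes were lower in the testis and Figla was called higher. In CV libraries edgeR called all 10, but it called 91.2% of 21231 genes in this comparison (47.4% higher and 43.8% lower), so a call here is the rule for any gene. In GF libraries it again called all 10, 9 of them lower, and 89.2% of all genes (45.7% higher and 43.4% lower). Bmp15, Zp1, Zp2, Zp3, Nobox, Oosp1 and Dppa3 passed the filter on low counts through their ovary reads alone. A call of these genes could therefore only be lower, and their number called is no separate evidence. The median log2 value of the 10 in CV libraries was -5.78, beside 0.11 over all genes. The ranges of the tissues stood apart for 9 members in either microbiota group, as for 90.8% of all genes in CV and 89.6% in GF libraries, and overlapped for Figla.

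Scaling matters for these values. With raw library totals in place of TMM scaling the median over all genes was -0.69 in CV and -0.75 in GF libraries, and genes higher in the testis made up 39.5% of the calls in CV in place of 52.0%, and 38.5% in GF in place of 51.3%. Relative to the median gene, Gdf9 was at -1.65 in CV libraries under either scaling, and Nlrp5 at -2.63. Both were thus lower in the testis under each scaling, with log2 values of -1.54 (SE 0.203, adjusted p = 6.58e-05) and -2.52 (SE 0.205, adjusted p = 9.53e-07) in CV by edgeR with TMM. In GF libraries they stood at -1.32 (SE 0.196) and -2.48 (SE 0.158).

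Pooled over a group and relative to raw totals, the ovary had 5.04 times the Gdf9 reads of the testis in CV (95% counting interval 4.70 to 5.41) and 4.35 times in GF libraries (4.02 to 4.71). For Nlrp5 the ratio was 9.99 (9.07 to 11.0) in CV and 9.65 (8.66 to 10.8) in GF. These exact intervals cover counting error only, and the reads carry no molecular identifiers. The other genes fell much further. The ratio was 116 (77.1 to 184) and 121 (72.0 to 222) for Zp3 in CV and GF, 699 (320 to 1906) and 1254 (347 to 10363) for Bmp15, and 1063 (455 to 3276) for Zp2 in CV, where the testes had 5 reads. Zp2 in GF testes rested on a single read, a ratio of 3251 with an interval from 583 to 128467. Nobox, at 43.1 (27.3 to 72.3) and 94.0 (42.9 to 257), had the smallest ratio of the genes below the filter. Zp1 was at 165 (86.5 to 362) and 100.3 (54.3 to 209.8) and Dppa3 at 83.9 (46.5 to 169) and 131 (56.0 to 406). Oosp1 was 245 times (95.2 to 904) higher in CV ovaries and at least 208-fold higher in GF ovaries, taking 3 reads over the GF testes as the floor.

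Figla was the exception, but its call depends on scaling. It was 0.97 higher in CV testes on the log2 scale (SE 0.359, adjusted p = 0.0211) and 1.50 higher in GF testes (SE 0.364, adjusted p = 0.00259, edgeR with TMM). With raw library totals the values were 0.17 (adjusted p = 0.654) and 0.72 (adjusted p = 0.0856), not called, and relative to the median gene they were 0.86 and 1.46 or 1.47 under both scalings. In CV the call also ended without ovary CV2 (0.77, adjusted p = 0.0540), ovary CV3 (0.85, 0.0570), testis CV2 (0.90, 0.0507) or testis CV4 (0.86, 0.0593). Over the 15 alternatives run, its adjusted p lay between 0.00489 and 0.654 for CV and between 0.000253 and 0.0856 for GF libraries. Relative to raw totals the testis had 1.13 times the Figla reads of the ovary in CV (95% counting interval 0.793 to 1.63) and 1.67 times in GF libraries (1.12 to 2.53).

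Listed oocyte genes differed in how far they fell in the testis. In CV libraries, where 43.8% of all genes were called lower and 47.4% higher, all 7 genes of the subcortical maternal complex were called lower by edgeR, for example Ooep (log2 -5.73), Nlrp2 (-7.47) and Padi6 (-2.91). Of 22 maternal and oocyte genes 17 were lower, such as Zar1 (-8.32), and 4 higher. Of 8 tested oocyte transcription regulators 4 were lower, such as Obox5 (-8.21), and 4 higher, such as Sohlh2 (5.39), which spermatogonia also use. All 6 surface genes were lower, for example Cd9 (-4.27) and Astl (-6.72), the egg protease that cleaves ZP2. Of the 14 genes for receptors and signalling 13 were lower. Of the 13 cumulus genes 6 were lower, a share near that of all genes, and 4 higher, a smaller share than that of all genes. Germ cell genes of both sexes had 5 of 6 higher, for example Ddx4 (8.22) and Sycp3 (7.80).

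The microbiota difference of the oocyte genes was not found to depend on the tissue, but genes with few testis reads could hardly show such a dependence. The interaction (the testis GF minus CV difference minus the ovary one), which uses the same 16 libraries as the comparisons above, called 0 of the 10 genes by edgeR, where 0.132% of 21977 genes were called. None of the 10 had an unadjusted p under 0.05, against 6.93% of all genes, and DESeq2 and limma-voom also called 0. Bmp15, Zp1, Zp2, Zp3, Nobox, Oosp1 and Dppa3, with few reads in any testis, entered this test through their ovary reads alone. Their SE ran from 0.428 (Zp3) to 1.43 (Oosp1), so only a large difference could have been called for them. The lowest p was 0.0618 for Oosp1 (log2 -2.89, SE 1.43, adjusted p = 0.737 by edgeR), which had 0 to 2 reads in any testis. For the genes with testis reads the value was 0.21 for Gdf9 (SE 0.292), 0.03 for Nlrp5 (SE 0.263) and 0.53 for Figla (SE 0.537). Of the listed partners of these genes, Padi6, a member of the complex around NLRP5, was called higher in GF testes (4.93 to 7.05 CPM, log2 0.52, SE 0.111, adjusted p = 0.00144 by edgeR). Its interaction was 0.68 (unadjusted p = 0.00728, adjusted p = 0.471 by edgeR), so its change was not shown to differ between the tissues. It was the 1 gene called of the 4 tested in that list, in a comparison where 8.08% of all genes were called. None was called among the other oocyte lists, the receptor list or the cumulus list in the testis.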

How the data were processed

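Total RNA of 9 ovary and 7 testis libraries was measured. Per the labels' protocols, stranded libraries were made after ribosomal RNA depletion and sequenced as paired reads. The authors deposited 1 table of raw read counts per gene, not normalised. Per the submitters' processing notes, STAR 2.4.0i and mm10 were used. Which counting tool, annotation and strand setting made the table was not given in the sources used here, so overlapping genes, antisense genes and near-identical copies may share reads unseen. Positions and exon lengths are those of GENCODE M21 (GRCm38), joined by gene identifier.

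Groups were taken from the labels. Counts were tested with edgeR 4.0.16 (R 4.3.3; TMM scaling, expression filter by group, robust quasi-likelihood F test), within each tissue for GF against CV, within CV and within GF for testis against ovary, and over all 16 libraries for the interaction. Adjustment was by Benjamini-Hochberg over all genes tested, and called means an adjusted p under 0.05. Intervals of fold changes use the fit's own degrees of freedom. CPM values are scaled by TMM within each tissue, and ratios pooled over a group use raw totals. Correlations use log2 CPM with 0.5 counts added. DESeq2 1.42.0, limma-voom (limma 3.58.1), other scalings, no filter, a fit of all libraries, each library left out and a replicate block were the alternatives, and the tests were tried on simulated data.

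The 10 genes and the 13 lists around them (117 symbols, all found, 3 of them under another name by identifier) were chosen with earlier results of these data known. All 10 genes are named. From each list up to 3 called genes of smallest p, or up to 2 of smallest p where none was called, could be named, and the 5 genes of most similar course over the ovaries with a mean of at least 1 CPM, passing over unnamed and predicted genes. Genes overlapping a member are named. Promoter windows of Gdf9, Zp1, Zp2 and Dppa3 were not analysed here.

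In the ovary, libraries of the same replicate number deviated together from their group means (r of 0.357, 0.249, 0.198 and 0.355 for numbers 1 to 4). Unlike-numbered CV and GF ovaries ran from -0.411 (CV2 with GF1) to 0.375 (CV2 with GF5). CV3 with GF4 (0.225) also exceeded CV3 with GF3. The numbers were taken to pair the ovary samples on this evidence from the data and not from the labels, so the pairing is uncertain. Chi-square tests of replicate pairs, on genes reaching 20 counts between them, gave 2.37 to 34.3 for each degree of freedom, so no library was a copy of another.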

Additional observations from a re-analysis of the deposited data

Results flagged for a closer look

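In 40 sets of values (each gene in CV ovaries, GF ovaries and CV testes, and each of the 5 gene ratios in CV and GF ovaries) the most extreme library was compared with its neighbour. A gap that fills most of the group's range marked 3 of them, and chance marks about 1 set in 20. The genes rose and fell together, so the 40 sets, and the 3 marked, are not independent of each other. The Gdf9 level of CV ovary 2 was 31.3 CPM, with the gap to the next library at 0.885 of the range. Zp3 stood at 18.6 CPM in the same library, with a gap of 0.855 of the range. The Nlrp5 to Dppa3 count ratio of GF ovary 2 was 4.59, below the other GF ovaries, with a gap of 0.769 of the range. In CV ovary 2 that ratio was 4.57. CV ovary 2 also had the lowest summed level of the 10 genes (166 CPM), with a total of 15141027 counts, the deepest of the CV ovaries.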

How the results depend on the processing

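The number of the 10 genes called did not change in the ovary (0), the testis (0) or the interaction (0) under any alternative run. In testis against ovary it was 10 in CV and in GF libraries, 9 where the call of Figla was lost. Of single values, 3 changed sign under alternatives that kept all or the partnered libraries: Nlrp5 in the testis with 1 fit of all libraries (-0.00856) and Figla in the testis with the replicate block (0.0801) or on the partnered libraries without it (0.0638). With 1 library left out, the ovary value ran from -0.297 to 0.00393 for Nobox and from -0.177 to 0.0743 for Nlrp5. In the testis it ran from -0.108 to 0.0825 for Nlrp5 and from -0.283 to 0.0638 for Figla. The interaction ran from -0.0881 to 0.167 for Nlrp5, from -0.193 to 0.123 for Zp3 and from -0.94 to 1.12 for Zp1, whose sign turned without GF testis 3 (8 of its 10 GF reads). The log2 ratio difference ran from -0.0702 to 0.0375 for Gdf9 to Bmp15 and from -0.0242 to 0.0985 for Nlrp5 to Dppa3. The cause of these turns was not tested.

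The replicate block changed no call of a member. With it 0 members were called in the ovary, where 91 genes were called in place of 32, and 0 in the testis, and 10 in either comparison of testis with ovary. The paired differences of the 5 ratios were -0.0702, -0.0526, 0.0829, -0.250 and 0.0291 in the order Gdf9 to Bmp15, Zp2 to Zp3, Zp1 to Zp3, Figla to Nobox and Nlrp5 to Dppa3 (exact sign-flip permutation, adjusted p = 0.75 for each). With so few pairs this sign-flip test cannot give a p under 0.05, so it could not have called any ratio. In the testis same-numbered libraries did not deviate together (r of -0.0440, 0.00696 and -0.0239). In the ovary DESeq2 called 95 genes and 1 fit of all libraries 93, with 0 members in either. Depth limits Figla in the ovary and 7 genes in the testis, and with them the interaction of these genes.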

Other observations

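Marker lists of other cell types were also counted. In the ovary edgeR called 0 genes of any of them between GF and CV: 7 of 9 granulosa, 1 of 5 theca, 5 of 9 corpus luteum, 5 of 5 oviduct and 2 of 4 tested Sertoli markers were negative, and 0 of 6 spermatid markers passed the filter. In the testis, where 8.08% of all genes were called, 2 of 4 tested oviduct markers were called lower in GF, Foxj1 (log2 -0.27, adjusted p = 5.18e-06) and Epcam (-0.16, adjusted p = 0.0319), and 2 of 6 spermatid markers, Odf1 (-0.15, adjusted p = 0.000131) and Acrv1 (-0.16, adjusted p = 0.00125), all by edgeR. The granulosa, theca, corpus luteum and Sertoli lists had 0 called there. Foxj1 marks ciliated cells in the oviduct and is also made in the testis.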
